A study of Homo sapiens with 8 samples.

Results

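The R820W variant of CARD14 was compared with wild-type (WT) CARD14 in 4 of the 8 libraries of the series. The count table has 28518 gene rows, and the 14269 genes with at least 10 counts in at least 2 of those 4 libraries were tested. All libraries came from HaCaT, an immortalised line of human skin keratinocytes, in which CARD14 had been knocked out, so the controls lack the cells' own CARD14 as well. Each dish received 9 ug of a plasmid that encodes CARD14, a self-cleaving T2A peptide and eGFP. At 24 h the cells carrying GFP were isolated by flow sorting, and libraries were made from their total RNA with a low-input kit. The WT group received the WT plasmid, and the R820W group the same plasmid with the R820W change. Each group had 2 libraries, lettered A and B. A and B are taken here to be the 2 independent experiments that the series describes, although no label says so. The comparison asks which genes differ when a variant described by the submitters as hypomorphic takes the place of WT CARD14. CARD14 is expressed from a plasmid here, not from its own gene, and no library without a plasmid was used.

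CARD14 is a CARD-family scaffold found in keratinocytes. It assembles BCL10 and MALT1 into a complex that activates NF-kB and the MAP kinases upstream of AP-1, a transcription factor built from FOS, JUN and ATF family subunits. In keratinocytes these factors drive chemokines that recruit leukocytes, and altered CARD14 activity is known in psoriasis and in atopic skin disease.

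3 promoters are shown because their genes were among those of smallest p that were higher with R820W, and because the CCL3 genes are near copies of each other. The sequences are from RefSeq, GRCh38.p14, and each is the 250 bases before a start site, written 5′ to 3′ on the gene's own strand. CCL3 lies on the minus strand (chr17:36090144-36090393), as does its copy CCL3L3 (chr17:36196759-36197008), and FOSB lies on the plus strand (chr19:45467746-45467995). In the first pair, capitals mark bases that differ or have no partner in the alignment. In FOSB they mark a CRE-like motif, the kind of element bound by CREB and ATF factors.
CCL3: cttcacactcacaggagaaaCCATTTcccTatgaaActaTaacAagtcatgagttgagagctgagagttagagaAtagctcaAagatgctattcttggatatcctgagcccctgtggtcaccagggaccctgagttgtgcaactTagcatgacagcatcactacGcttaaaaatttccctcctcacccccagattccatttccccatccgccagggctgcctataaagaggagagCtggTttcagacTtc
CCL3L3: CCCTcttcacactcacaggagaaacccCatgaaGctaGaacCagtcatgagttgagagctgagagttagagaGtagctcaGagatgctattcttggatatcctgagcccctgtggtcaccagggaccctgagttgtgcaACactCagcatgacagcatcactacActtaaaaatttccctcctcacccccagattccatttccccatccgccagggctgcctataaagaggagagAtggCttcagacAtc
FOSB: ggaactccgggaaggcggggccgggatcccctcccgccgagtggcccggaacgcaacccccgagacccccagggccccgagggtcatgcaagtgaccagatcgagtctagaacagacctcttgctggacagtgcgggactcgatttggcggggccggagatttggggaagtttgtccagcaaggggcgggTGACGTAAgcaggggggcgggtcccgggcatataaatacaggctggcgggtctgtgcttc
The CCL3 and CCL3L3 windows were identical at 233 of 244 aligned bases (95.5%). The FOSB window holds TGACGTAA 60 bases before the start. The motif searched, TGACGTNA on both strands, was found in 2.67% of 35116 promoters of this length. The AP-1 motif TGANTCA was in 6.57% of them and the NF-kB consensus in 9.96%, and neither was in the 3 windows shown. The windows of ATF3, TNF, FOS and JUN, not shown, were also searched and held no match to any of these motifs. For LTA, a cytokine gene described below, the window of start site 2 held overlapping NF-kB consensus matches, 104 and 103 bases before the start. A match or its absence describes only these letters.

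The 4 libraries held 17892608 to 24149631 counts, and 17909 to 18855 genes had a count. Keratinocyte identity was present, with all 9 keratinocyte markers above 1 CPM (read counts scaled to the normalised library size). All 9 fibroblast and all 5 endothelial markers had a mean under 1 CPM. Of 9 immune-cell markers only the lysosomal CD68 exceeded it, and the T-cell marker CD3E and the Langerhans-cell marker CD207 were at 0. Of 7 melanocyte markers, MITF, PMEL and MLANA exceeded it (summed list 9.61 and 12.01 CPM with WT, 10.4 and 9.79 CPM with R820W) and TYR was at 0. The summed keratinocyte markers ran with the letter rather than the plasmid, at 10790 (WT A), 9149 (R820W A), 6876 (WT B) and 6498 CPM (R820W B).

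The WT A library stood apart from the other 3. Among 9532 genes with a mean of at least 5 CPM over the 4 libraries, it was the lowest by at least 2-fold for 89 genes, against 7 genes for WT B, 1 for R820W A and 3 for R820W B. TMED9, a cargo receptor of the secretory pathway, was at 55.2 CPM in WT A and at 331, 419 and 325 CPM in R820W A, WT B and R820W B. LMNB1, a nuclear lamin, was at 18.6 CPM in WT A and at 77.1, 119 and 143 CPM in the same 3 libraries. Both genes were chosen after their values were seen. The transcripts of 84 of the 89 genes could be matched to an annotation, and their median GC content was 53.4%, against 46.7% over all genes at that level. Where leaving out WT A moved the log2 fold change of a named gene by over 1.5 times, the value without it is given as well. For medians of lists, it is given only for AP-1, chemokine, heat-shock and integrated stress response genes. Fits with a library left out keep the libraries of the other variants, N737H and I593T. Their gap between A and B enters such values, which do not rest on the R820W and WT libraries alone.

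The difference between plasmids followed the GC content of the transcript in A and hardly in B. The matched genes at 5 CPM or more were split into 5 equal groups by GC content. In A, the median log2 difference between R820W and WT climbed from -0.22 in the group of lowest GC content through -0.14, -0.03 and 0.10 to 0.21 in the highest. The share of genes higher with R820W in A went from 16.5% to 80.4%. In B, the medians of the 5 groups lay between -0.15 and -0.04, and 27.7% to 42.4% of genes were higher. Differences with this trend subtracted are given beside some of the results below.

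**Figure D1:**
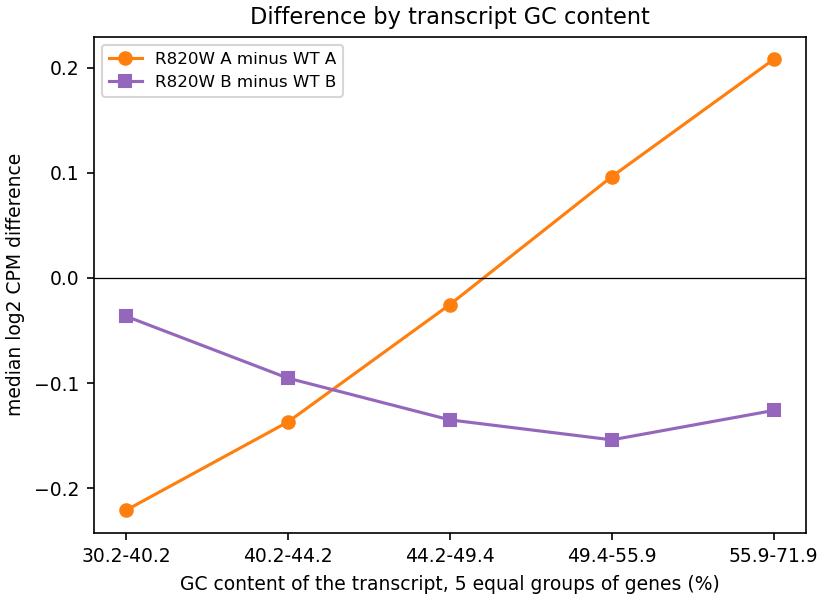
Median log2 CPM difference (y axis) between R820W and WT within A (circles) and within B (squares), for 5 equal groups of genes by transcript GC content (x axis, %). The A line climbs from -0.22 to 0.21 while the B line stays between -0.15 and -0.04.

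The plasmid-encoded gene was present in every library. CARD14 stood at 1116 (WT A), 994 (WT B), 1180 (R820W A) and 1398 CPM (R820W B). Both R820W libraries were above both WT libraries, but the log2 fold change of 0.24 ± 0.36 (SE, n = 2 per group) had a 95% interval of -0.61 to 1.09 (edgeR adjusted p = 1.00). It was -0.23 without WT B, -0.08 without R820W A and 0.94 without WT A. These fits include N737H, with CARD14 at 452 (A) and 1001 CPM (B), and I593T, at 504 and 1381 CPM. In the fit of only the 4 libraries with the block, the log2 fold change of CARD14 was 0.31. The counts do not tell a WT from an R820W transcript. MYC, the transcription factor named in the title of the series, was at 734 (WT A), 756 (WT B), 782 (R820W A) and 696 CPM (R820W B). Its log2 fold change was -0.01 ± 0.14 (-0.03 without WT A), with an interval of -0.34 to 0.32, and its sign turned with scaling (0.07 with the upper quartile and 0.10 with total counts).

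Over the whole transcriptome, no gene passed the test of R820W against WT. The test was edgeR's quasi-likelihood test on all 8 libraries with the letter as a block, and a call meant a Benjamini-Hochberg adjusted p under 0.05 (0 of 14269 genes, 0%). The smallest edgeR adjusted p was 0.679, for CCL4L2. An unadjusted p under 0.05 was found for 387 genes (2.71%), 131 higher (0.918%) and 256 lower (1.79%), where 713 would come by chance. With 2 libraries per group, the p-values measure the spread left among all 8 libraries after the shift between letters is removed (3 residual degrees of freedom). That spread is pooled over the 4 groups, N737H and I593T included. The average gap between A and B is taken out by the block and does not enter it. DESeq2 with the block called 1 gene, CCL4L2, and limma voom with the block called 0, with 407 genes at an unadjusted p under 0.05. A fit of only the 4 libraries with the block, which leaves 1 residual degree of freedom, called 15 genes. Without WT B, 72 genes were called (59 higher and 13 lower), and leaving out any of the other 7 libraries called 0.

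The direction of the transcriptome was split between the letters. Of the 14269 genes, 45.4% were higher with R820W in the fit, 50.2% within A and 43.3% within B. The share in the fit depends on the scaling, at 59.93% with upper-quartile scaling and 65.38% with total counts. Higher in both letters were 2961 genes (20.8%), and lower in both were 3884 (27.2%). The sign was the same in A and B for 47.97% of genes. Across genes, Pearson's r between the A and the B difference was -0.03 and Spearman's rho -0.07. These are descriptions across genes, which are not independent replicates, and the 2 differences share no library. For the genes at 5 CPM or more the values were 47.22%, -0.13 and -0.17.

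Removing the GC trend did not bring the letters together. The median of 20 bins of GC content was subtracted within each letter for 8795 genes at 5 CPM or more, an alternative chosen after seeing the data. The same-sign share went from 47.15% to 46.83%, and Pearson's r from -0.13 to -0.10. Shares of all genes higher in both letters or lower in both were not computed for the adjusted differences. The backgrounds given below are for unadjusted differences of all tested genes, so adjusted counts of a list have no background of their own.

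Genes that differed by at least 2-fold in both letters were few. At 5 CPM or more, 111 genes were at least 2-fold higher in A and 43 in B, and 12 and 9 were at least 2-fold lower. In both letters at once, 3 genes were at least 2-fold higher (CCL4L2, FOSB and the transcript AK097957), 0 were lower, and 2 went opposite ways. Libraries of the same plasmid differed for more genes: 717 genes (7.52%) lay at least 2-fold apart between WT A and WT B, and 171 (1.79%) between R820W A and R820W B. R820W and WT lay that far apart for 123 genes (1.29%) in A and 52 (0.546%) in B.

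**Figure D2:**
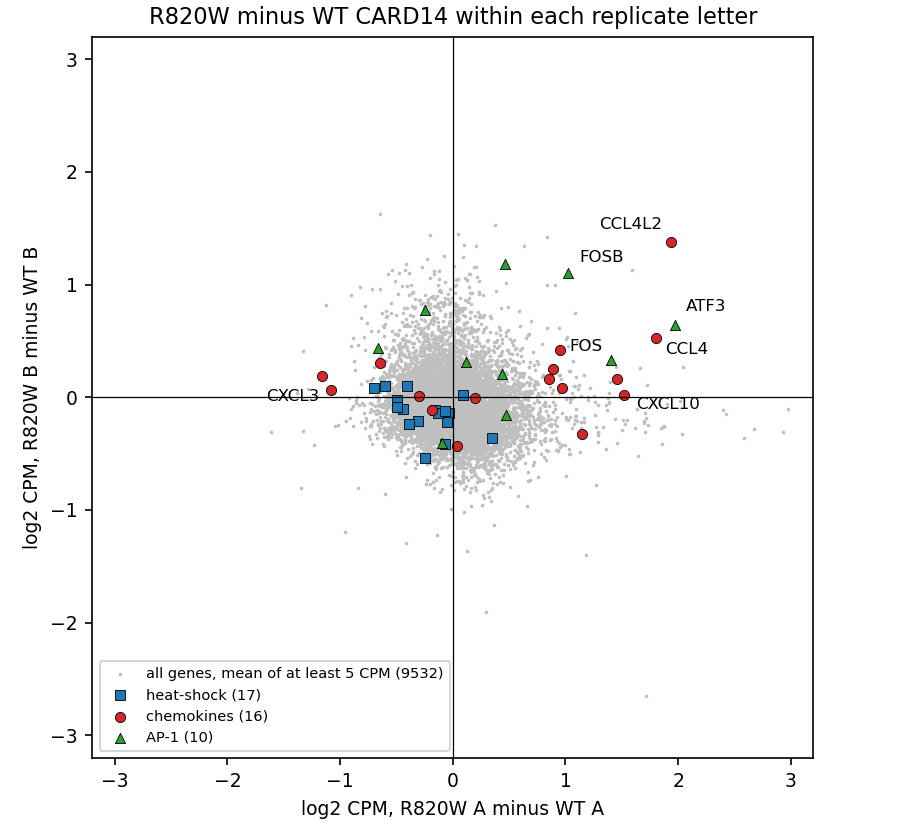
Each point is a gene with a mean of at least 5 CPM, with its log2 CPM difference between R820W and WT in A (x axis) and in B (y axis). Of 9532 genes, 2 lie outside the frame. Chemokines, AP-1 genes and heat-shock genes are marked, and CCL4L2 and FOSB lie at the upper right, at least 2-fold higher in both letters.

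In B the direction differed with expression level. In the third of genes with the highest level (37.3 to 13100 CPM), 20.12% were higher with R820W in B and 43.36% in A. In the third with the lowest level, 62.99% were higher in B and 57.23% in A.

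Among chemokines, the CCL3 and CCL4 genes were higher with R820W in both letters. These genes encode MIP-1α and MIP-1β and their copies, which attract monocytes and T cells. CCL4L2 was at 17.9 (WT A), 8.14 (WT B), 69.0 (R820W A) and 21.3 CPM (R820W B). Both R820W libraries were above both WT libraries, and A was above B within each plasmid. The log2 fold change was 1.69 ± 0.20 (SE), with a 95% interval of 1.22 to 2.15 and an unadjusted edgeR p of 4.76e-05 (0.026 without the block). It lay between 1.39 and 1.97 with each of the 4 libraries left out in turn, and DESeq2 with the block gave 1.71 (adjusted p = 1.8e-07).

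CCL4 was at 5.53 (WT A), 6.48 (WT B), 19.5 (R820W A) and 9.37 CPM (R820W B), so the groups did not overlap. Its log2 fold change was 1.19 ± 0.33, or 0.73 without R820W A and 0.80 without WT A. CCL3 was at 84.2, 47.6, 163 and 63.6 CPM in the same order, and R820W B fell short of WT A. Within each letter R820W was above WT, by 0.95 in A and 0.42 in B on the log2 scale (fit 0.71 ± 0.21, and 0.33 without R820W A). CCL3L3 was at 6.67, 3.14, 14.3 and 5.33 CPM (0.94 ± 0.24). CCL3L1 was at 168, 89.5, 303 and 100 CPM (0.51 ± 0.18, or 0.27 without R820W A), and most of its difference was in A, at 0.85 against 0.16 in B.

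These near copies cannot be fully separated by counts per gene. Of the 50-base windows of the CCL4 transcripts, 182 of 904 (20.1%) also occur in CCL4L2, and 72 of 729 windows of CCL3 (9.88%) occur in CCL3L1. How the authors' counting divided such reads is not given in the sources used here, so the values of single copies are uncertain. With the GC trend removed, CCL4L2 differed by 1.85 in A and 1.53 in B, CCL4 by 1.78 and 0.68, and CCL3 by 0.90 and 0.56.

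CCL4L2 was also higher with R820W than with the variant N737H. It stood at 8.50 (A) and 3.67 CPM (B) with N737H, and at 9.66 and 4.61 CPM with I593T. R820W minus N737H was 2.80 ± 0.21 on the log2 scale (edgeR adjusted p = 0.031, 1 of 14269 genes called, 0.00701%). R820W minus I593T was 2.55 ± 0.21 (edgeR adjusted p = 0.054, 0 genes called).

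For CCL5, CXCL10 and CXCL11 the difference lay mostly in A. CCL5 (RANTES), an attractant of T cells, was at 99.6 (WT A), 181 (WT B), 274 (R820W A) and 203 CPM (R820W B). The groups did not overlap, yet the difference was 1.46 in A and 0.16 in B (fit 0.74 ± 0.31, 0.23 without WT A and 1.44 without WT B). CXCL10, a ligand of CXCR3, was at 9.02, 17.3, 26.1 and 17.5 CPM in that order, with 1.52 in A and 0.02 in B (fit 0.69 ± 0.37, and 0.09 without WT A). CXCL11, which binds the same receptor, had 0.54 ± 0.28, or 0.17 without WT A.

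The neutrophil attractants CXCL5, CXCL3, IL8 and CXCL1 were lower with R820W in A and not lower in B. CXCL5 was at 85.0 (WT A), 10.6 (WT B), 38.0 (R820W A) and 12.1 CPM (R820W B), and the gap between the WT libraries exceeded any difference between plasmids. Its log2 fold change was -0.64 ± 0.42, and 0.42 without WT A. CXCL3 (101, 32.9, 47.6 and 34.5 CPM) had -0.60 ± 0.34, and 0.23 without WT A. IL8, the classic neutrophil attractant, was at 603, 133, 385 and 165 CPM (-0.19 ± 0.23, and 0.27 without WT A). CXCL1 (485, 232, 394 and 235 CPM) had -0.15 ± 0.14, and 0.08 without WT A. The monocyte attractant CCL2 (0.39 ± 0.60) was at -0.38 without WT A and 1.58 without WT B, and CCL20, a ligand of CCR6, had -0.15 ± 0.18.

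Of 27 chemokines, 26 are in the table and 19 were tested. Of these 13 were higher and 6 lower in the fit, where 45.4% of all tested genes were higher, and 9 were higher in both letters. The list's median was 0.11 in the fit, 0.78 in A and 0.08 in B, beside -0.03, 0.0017 and -0.05 for all tested genes. Without WT A the list's median in the fit was 0.20. The groups did not overlap for 6 chemokines, all higher (background 11.4%), and 5 had an unadjusted p under 0.05 (background 0.918%). CCL4L2, CCL4, CCL3, CCL3L1 and CCL5 are those 5, and the first 4 belong to sets of near copies whose counts are not independent. These p-values depend on the letter block. Without it the unadjusted edgeR p was 0.026 for CCL4L2, 0.011 for CCL4, 0.13 for CCL3, 0.34 for CCL3L1 and 0.037 for CCL5. CCL3L3, which also had an unadjusted p under 0.05 (0.0051, and 0.15 without the block), is entered in the list together with CCL3L1 and is not counted again.

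**Figure D3:**
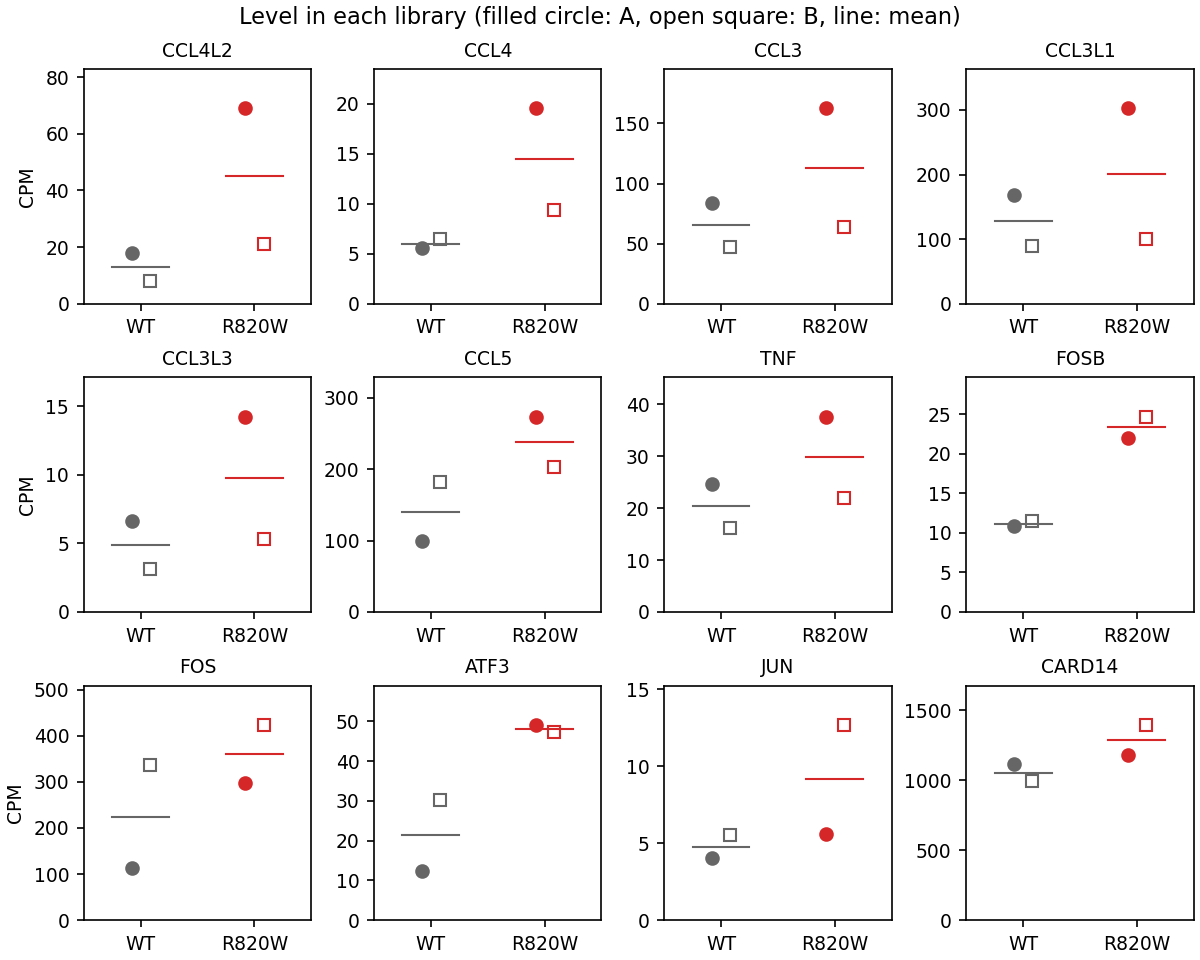
CPM (y axis, from 0) of 12 genes in each WT and R820W library, with A as filled circles, B as open squares and the group mean as a line. The R820W values of CCL4L2, CCL4, CCL5, FOSB, ATF3, JUN and CARD14 lie above both WT values, while those of CCL3, CCL3L1, CCL3L3, TNF and FOS overlap the WT range.

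Among AP-1 genes, FOSB, ATF3, FOS and JUN were higher with R820W in both letters, to unequal extents. FOSB, an inducible FOS-family subunit, was at 10.8 (WT A), 11.5 (WT B), 22.1 (R820W A) and 24.7 CPM (R820W B). The 2 libraries of each plasmid lay close together and the groups did not overlap. The log2 fold change was 1.07 ± 0.23, with an interval of 0.53 to 1.60 and an unadjusted p of 0.0021, and it stayed between 1.03 and 1.13 with each of the 4 libraries left out. With the GC trend removed it was 0.80 in A and 1.23 in B. Against WT, FOSB was also higher with N737H (0.41 ± 0.23) and with I593T (0.70 ± 0.23).

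ATF3, a stress-induced member of the ATF family that pairs with JUN, was at 12.5 (WT A), 30.2 (WT B), 49.2 (R820W A) and 47.2 CPM (R820W B). The R820W libraries agreed closely and the WT libraries did not. The log2 fold change was 1.22 ± 0.36, or 0.66 without WT A and 2.01 without WT B, where it passed the test (edgeR adjusted p = 0.0036). FOS was at 113, 337, 298 and 424 CPM in that order, so R820W A lay below WT B. Its value of 0.73 ± 0.48 was 0.10 without WT A and 1.75 without WT B. JUN, the main partner of FOS, was at 4.04, 5.54, 5.60 and 12.7 CPM, with the difference mostly in B (0.78 ± 0.55, 1.75 without WT A, 0.02 without WT B and 0.35 without R820W A).

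The remaining AP-1 genes were not uniformly higher. JUNB had 0.33 ± 0.30 (0.05 without R820W A, 0.50 without WT A) and the small MAF protein gene MAFG 0.21 ± 0.16 (0.40 without WT A, 0.08 without WT B). FOSL1 (FRA-1) was at 476 (WT A), 202 (WT B), 301 (R820W A) and 273 CPM (R820W B), which is lower in A and higher in B (-0.26 ± 0.47, and 0.87 without WT A). Of 12 tested AP-1 genes out of 14, 8 were higher and 4 lower, and 6 were higher in both letters (background 20.8%). The median was 0.17 in the fit (0.45 without WT A) and 0.32 in each letter. The 10 AP-1 genes at 5 CPM or more with a matched transcript had a median GC content of 57.5%. Removing the GC trend took their medians from 0.45 to 0.24 in A and from 0.38 to 0.52 in B. After that, 5 of the 10 were higher and 1 lower in both letters, counts with no background of their own. FOSB, ATF3, JUN and MAFG did not overlap between groups on the higher side (4 of 12, background 11.4%), and MAFK did not on the lower side (background 14.6%).

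Among the other immediate-early genes, the fast transcripts of growth-factor and stress signalling, IER2 and DUSP1 were higher mainly in B. IER2 was at 113 (WT A), 66.2 (WT B), 120 (R820W A) and 157 CPM (R820W B). The phosphatase gene DUSP1 was at 8.43, 5.20, 9.03 and 13.4 CPM in that order. Their log2 fold changes were 0.54 ± 0.44 and 0.60 ± 0.47, and both turned without WT B, to -0.15 and -0.14. Without WT A they were at 1.59 and 1.68. EGR1, a zinc-finger factor of the same early wave, was at 99.4, 111, 97.6 and 115 CPM. It had 0.01 ± 0.19, or -0.08 without WT A, and lay between -0.18 and 0.20 with a library left out. Of 19 tested members out of 24, 11 were higher and 8 lower, with a median of 0.02.

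TNF had the smallest p of the cytokine list. It was at 24.6 (WT A), 16.2 (WT B), 37.7 (R820W A) and 22.0 CPM (R820W B), above WT in each letter but with overlapping groups. The log2 fold change was 0.52 ± 0.16, between 0.42 and 0.68 with each library left out. Its unadjusted edgeR p was 0.25 without the block and 0.012 with it. LTA, a cytokine that the list leaves out, had a smaller unadjusted edgeR p (0.00999) at a lower level. It was at 0.544 (WT A), 0.932 (WT B), 2.78 (R820W A) and 3.02 CPM (R820W B), and was chosen after its values were seen. Of 17 tested cytokines out of 20, 7 were higher and 10 lower (median -0.07), and 10 were higher and 7 lower with total counts. IL1B, a pyrogenic interleukin, had -0.43 ± 0.25, or 0.09 without WT A and -0.81 without WT B. The receptor antagonist IL1RN had -0.14 ± 0.18, or -0.36 without WT A and 0.17 without WT B.

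NF-kB genes had more members higher than lower, with small differences. Of 21 subunits, feedback inhibitors and targets, 14 were higher and 7 lower (19 and 2 with total counts), with a median of 0.04. In both letters 6 were higher (background 20.8%). The 3 members of highest CPM had -0.06 ± 0.17 (SDC4), 0.04 ± 0.17 (SOD2) and 0.0018 ± 0.35 (TNFAIP3, which encodes the inhibitor A20). Without WT A they were at -0.21, -0.09 and 0.86, and without WT B at 0.16, 0.25 and -0.59. NFKBIZ, which encodes IκBζ and was chosen after its values were seen, was at 45.8 (WT A), 30.5 (WT B), 52.7 (R820W A) and 50.3 CPM (R820W B), with 0.44 ± 0.19, or 0.84 without WT A and 0.14 without WT B. Among 17 tested CARD14 partners, 6 were higher and 11 lower, which turned to 12 and 5 with total counts. BCL10, the adaptor that CARD14 recruits, was at 139, 128, 104 and 108 CPM in that order, and its groups did not overlap (-0.32 ± 0.13, and -0.21 without R820W A). It was the only partner with an unadjusted edgeR p under 0.05 (0.035, and 0.071 without the block). Against WT, BCL10 was also lower with N737H (-0.41 ± 0.13) and with I593T (-0.36 ± 0.13). Of the 17 partners, 4 did not overlap on the lower side (background 14.6%) and 0 on the higher side (background 11.4%).

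Heat-shock genes were mostly lower with R820W, though none passed the test. Of 19 heat-shock proteins and cochaperones, 3 were higher and 16 lower, and 12 were lower in both letters (background 27.2%). With total counts, 6 were higher and 13 lower. Their median was -0.23 in the fit (-0.12 without WT A), -0.16 within A and -0.11 within B. The background covers genes of every level, and the list was not compared with genes of its own level. In the third of highest level, 43.36% of genes were higher in A and 20.12% in B. HSPE1, the mitochondrial cochaperonin, was at 628 (WT A), 775 (WT B), 530 (R820W A) and 535 CPM (R820W B). Both R820W libraries were below both WT libraries (-0.39 ± 0.14, unadjusted p = 0.029). HSPA4 also did not overlap (-0.26 ± 0.12), nor did HSP90AB1 (-0.14 ± 0.14, or -0.03 without WT B). These 3 of 19 are near the background of 14.6%. On the higher side 1 gene did not overlap, HSPA1L, which had a mean under 5 CPM and was chosen after its values were seen.

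HSPA1A, DNAJB1 and HSPA8 were each higher in A than in B with both plasmids. HSPA1A, the inducible HSP70, was at 1098 (WT A), 505 (WT B), 778 (R820W A) and 496 CPM (R820W B). It had -0.27 ± 0.20, and its cochaperone DNAJB1 had -0.28 ± 0.17. The constitutive HSPA8 had -0.09 ± 0.14, or -0.14 without WT A. Without WT A, HSPA1A was at 0.04 and DNAJB1 at 0.01, and without WT B, HSPA8 was at 0.02, which total-count scaling also gave. With the GC trend removed, 8 of the 17 heat-shock genes at 5 CPM or more were lower in both letters, a count with no background of its own. Their medians were then -0.24 within A and -0.02 within B.

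Genes of the integrated stress response, which ATF4 drives when translation is restrained, had 6 higher and 17 lower of 23 tested out of 24. The median was -0.15, or -0.06 without WT A. In both letters 0 were higher (background 20.8%) and 9 lower (background 27.2%). The amino-acid transporter subunit SLC3A2 had -0.15 ± 0.15, the serine-synthesis enzyme PSAT1 -0.23 ± 0.12 and HERPUD1 -0.30 ± 0.14. PSAT1 and HERPUD1 were at -0.12 and -0.09 without WT A, and SLC3A2 at -0.02 without R820W B. ATF4 itself had 0.11 ± 0.13, or 0.06 without WT A and 0.21 without WT B. Endoplasmic-reticulum chaperones had 2 higher and 13 lower of 15 (median -0.07), and 9 and 6 with total counts. NRF2 antioxidant genes had 3 higher and 13 lower of 16 (median -0.28), among them the ferritin chains FTH1 (-0.34 ± 0.17) and FTL (-0.30 ± 0.16), at -0.15 and -0.13 without WT B. The p53 targets had 12 higher and 6 lower of 18 (median 0.09).

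Several large lists had opposite medians in A and in B. Nuclear respiratory-chain genes had 0.12 in A and -0.58 in B, and cytosolic ribosomal protein genes 0.17 and -0.42. In both lists 0 genes were higher in B, of 33 and of 82. WT B had the highest share of counts in ribosomal protein genes, 4.94%, against 3.77% in WT A, 4.23% in R820W A and 4.22% in R820W B. Interferon-stimulated genes had 0.39 in A and -0.01 in B, beside 0.0017 and -0.05 for all tested genes. Of 38, 32 were higher and 6 lower in the fit, where 45.4% of all tested genes were higher. In both letters 14 were higher (background 20.8%) and 0 lower (background 27.2%). With the GC trend removed, 20 of these 38 genes were higher and 1 lower in both letters, counts with no background of their own. IFIT3, an antiviral effector, was at 1385 (WT A), 3263 (WT B), 1940 (R820W A) and 2703 CPM (R820W B), with both R820W libraries between the WT libraries.

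**Figure D4:**
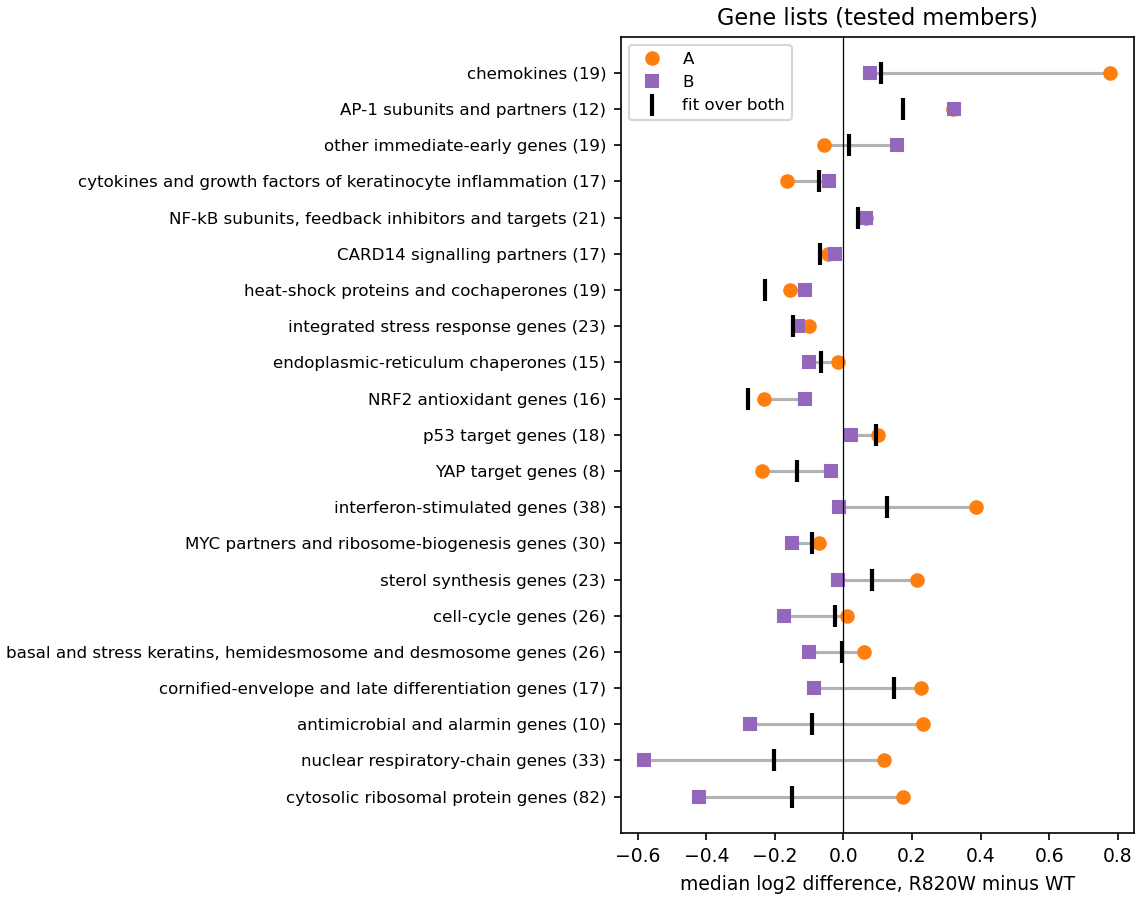
Median log2 difference between R820W and WT (x axis) for the tested members of 21 gene lists (number in brackets), within A (circles), within B (squares) and in the fit over both (bars). AP-1 genes have the same median in A and B, 0.32, whereas respiratory-chain and ribosomal protein genes have medians of opposite sign. With the GC trend removed (not drawn), the 10 AP-1 genes at 5 CPM or more had medians of 0.24 in A and 0.52 in B.

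MYC partners and ribosome-biogenesis genes had 8 higher and 22 lower of 30, and 17 and 13 with total counts. In both letters 19 were lower (background 27.2%), and 11 did not overlap on the lower side (background 14.6%). Both backgrounds cover genes of every level, and the list was not compared with genes of its own level. In the third of highest level, 43.36% of genes were higher in A and 20.12% in B. The nucleolar chaperone NPM1 was at 1990 (WT A), 1758 (WT B), 1613 (R820W A) and 1476 CPM (R820W B), with -0.28 ± 0.13, and nucleolin (NCL) had -0.08 ± 0.13, or 0.01 without WT B and 0.03 with total counts. With the GC trend removed, 11 of 28 were lower in both letters, a count with no background of its own. Among YAP targets, CYR61, a matricellular growth factor, was at 56.5, 46.3, 106 and 92.3 CPM in that order, and its groups did not overlap (0.95 ± 0.36). It was at 1.51 without WT A, 0.56 without WT B and 0.50 without R820W A. Against WT, CYR61 was also higher with N737H (1.14 ± 0.36) and with I593T (1.75 ± 0.37). The receptor kinase AXL had -0.41 ± 0.16, or -0.13 without WT A and -0.62 without WT B, and of the 8 targets 2 were higher and 6 lower.

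Keratinocyte differentiation genes showed no common direction. Cornified-envelope genes had 10 higher and 7 lower of 17 tested out of 25 (median 0.23 in A and -0.09 in B). Basal and stress keratins with hemidesmosome and desmosome genes had 12 higher and 14 lower of 26, and 19 of these had opposite signs in A and B. With total counts the last list had 19 higher and 7 lower. Antimicrobial and alarmin genes had 3 higher and 7 lower of 10 (5 and 5 with total counts). Cell-cycle genes had 10 higher and 16 lower of 26 (16 and 10 with total counts), and sterol synthesis genes 15 and 8 of 23.

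The rule that names genes takes the 10 of smallest p in each direction with the same sign in A and B, so that sign is no added support. The higher ones besides those above were AK097957 (1.38 ± 0.25), PRR5-ARHGAP8 (1.15 ± 0.25), a read-through model that shares sequence with its 2 parent genes, and LOC23117 (0.68 ± 0.19). AK097957 was at 2.90 (WT A), 2.94 (WT B), 8.95 (R820W A) and 6.57 CPM (R820W B), and its groups did not overlap. Against WT, it was also higher with N737H (1.38 ± 0.25) and with I593T (0.88 ± 0.25). PRR5-ARHGAP8 had 0.80 ± 0.25 with N737H and 0.31 ± 0.25 with I593T, and LOC23117 had 0.39 ± 0.19 and 0.07 ± 0.19.

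Of the 10 lower genes, PPP3CA, PSMC3IP, TMA16, NUDT19, SDAD1 and TSPYL1 lay between -0.45 and -0.56. PPP3CA, the catalytic subunit of calcineurin, was at 93.1 (WT A), 68.4 (WT B), 55.8 (R820W A) and 52.9 CPM (R820W B), with -0.56 ± 0.14, or -0.34 without WT A. PSMC3IP, a cofactor of meiotic recombinases, was at 63.4, 62.5, 46.1 and 46.0 CPM (-0.45 ± 0.12). TMA16, a factor of ribosome assembly, was at 74.0, 74.6, 53.7 and 53.5 CPM (-0.47 ± 0.13). In both of these the libraries of a plasmid nearly coincided. NUDT19 (-0.51 ± 0.13), SDAD1 (-0.48 ± 0.13) and TSPYL1 (-0.45 ± 0.13) also did not overlap, and the first 2 were at -0.33 and -0.32 without WT A. The transcripts AK298056 (-1.07 ± 0.20), E10222 (-1.09 ± 0.29), LOC100505876 (-0.65 ± 0.19) and BC050599 (-0.50 ± 0.15) completed the 10. LOC100505876 was at -0.37 without WT A and -0.36 without R820W A. Against the same WT libraries, all 10 were also lower with N737H and with I593T in the fit, by less than with R820W. These values ran from -0.03 (LOC100505876, N737H) to -0.64 (AK298056, N737H and I593T). BC050599 had -0.32 with N737H and -0.48 with I593T, and E10222 had -0.36 and -0.62.

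**Figure D5:**
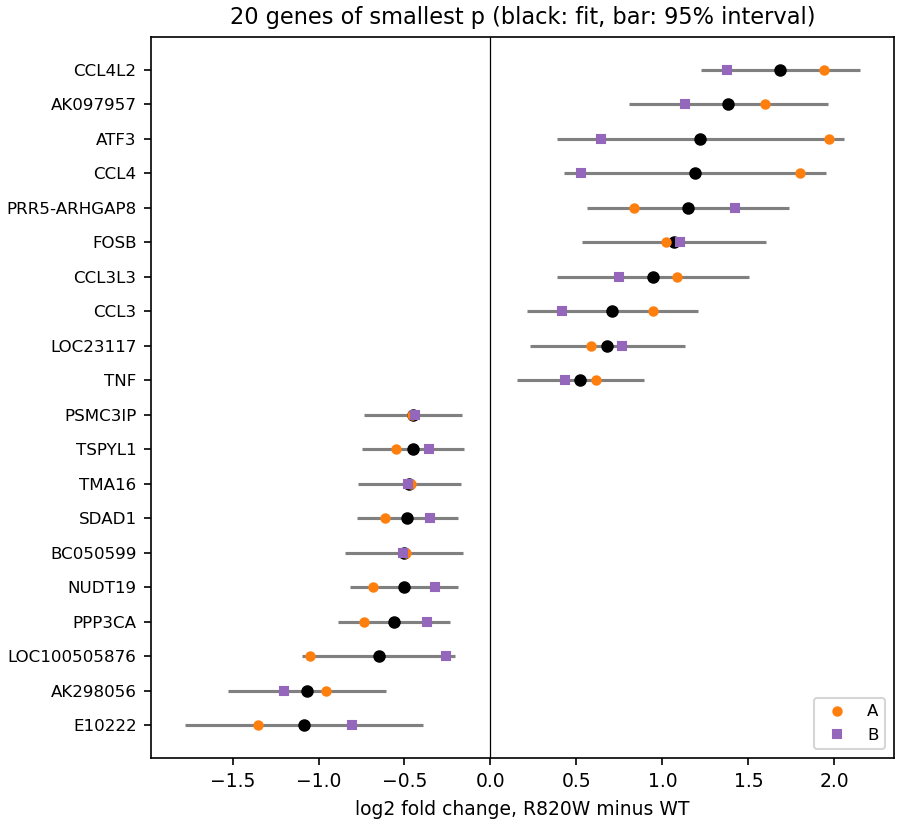
Log2 fold change of R820W against WT (x axis) for the 10 higher and 10 lower genes of smallest p, with the fit in black, its 95% interval as a bar, and the differences within A (circles) and B (squares). CCL4L2 has the highest value, 1.69, and none of the 20 passed after adjustment.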

How the data were processed

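The data are raw gene-level counts of 8 libraries, deposited by the authors as 1 table keyed by symbol. The submitters' processing notes name hg19, FastQC, MACS2 and DESeq2, with no versions or roles. For the aligner, counter, annotation and strand setting, the sources used here give nothing. Genes with at least 10 counts in at least 2 of the 4 libraries were fitted with edgeR 4.0.16 (R 4.3.3) on all 8 libraries. TMM normalization was used, with group and letter as terms and 3 residual degrees of freedom, two-sided quasi-likelihood tests and Benjamini-Hochberg adjustment. SEs were derived from the F statistics, and within-letter differences use log2 CPM (prior count 2). The code was tested on simulated data. GC content came from GENCODE transcripts of GRCh38, matched by symbol for 85.3% of tested genes.

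Same-letter libraries deviated together for WT and R820W (r = 0.44), but not for WT with N737H (r = 0.003), so pairing rests on reading the letters as experiments. No pair of the 4 libraries agreed within sampling noise (chi-square per gene at least 16.9). The comparison, gene lists and tests were chosen with earlier results of these data known. The text names CARD14, MYC and the 10 genes of smallest p in each direction (mean of at least 5 CPM, same sign in A and B). It also names some members at that level of the AP-1, immediate-early, chemokine, heat-shock, integrated stress response and cytokine lists. For each other list the rule allowed the 3 members of highest CPM, but only some are named, and for several lists none. Genes outside the rule are named too, among them TMED9, LMNB1, LTA, NFKBIZ and HSPA1L, chosen after their values were seen. Alternatives were other normalizations (RLE, upper quartile, total counts), other filters, DESeq2 1.42.0, limma 3.58.1 voom, no block, the 4 libraries alone, other prior counts, each library left out, and a GC correction.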

Additional observations from a re-analysis of the deposited data

How the results depend on the processing

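The comparison rests on 2 libraries per group, and the 2 WT libraries differ from each other more than the plasmids do. Without the replicate block, edgeR called 0 genes, 141 had an unadjusted p under 0.05, and 44.10% were higher, with TNFAIP3 at -0.10. In the 4 libraries alone with the replicate block, 15 genes were called, 50.72% were higher, the chemokine median was 0.38 and MYC was at 0.0067. Among the 15 were CCL4L2, AK097957, FOSB, CCL4, ATF3, CYR61, AK298056 and E10222. In the 4 libraries with no block, the count at an unadjusted p under 0.05 was 117, 47.78% were higher, MYC was at 0.0090 and TNFAIP3 at -0.094. DESeq2 with the block called 1 gene, had 231 at an unadjusted p under 0.05 and 49.44% higher, with MYC at 0.0094. The share higher was 49.46% with RLE, 50.25% with no filter on low counts, 49.36% with filterByExpr, 47.18% with limma voom, 59.93% with the upper quartile and 65.38% with total counts. MYC was at 0.0094 with RLE and 0.0044 with filterByExpr, and TNFAIP3 at -0.0013 with no filter. The median over all genes moved from -0.03 to 0.08 with total counts and 0.06 with the upper quartile, so a small list median has to be read relative to that shift. The correlation of A with B was -0.13 at 5 CPM or more, and -0.095 with the GC trend removed, where the same-sign share was 46.83%. The cause of these moves was not tested.

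With each library left out in turn, the count of calls ran from 0 to 72 (72 without WT B), the count at an unadjusted p under 0.05 from 70 to 1496, the share higher from 42.70% to 51.28%, the AP-1 median from 0.052 to 0.50 and the chemokine median from 0.17 to 0.74. Values that changed sign ran from -0.23 to 0.94 for CARD14, -0.084 to 0.080 for MYC, -0.38 to 1.58 for CCL2, -0.31 to 0.083 for CXCL1, -1.18 to 0.23 for CXCL3, -1.30 to 0.42 for CXCL5, -0.56 to 0.27 for IL8, -0.14 to 1.68 for DUSP1, -0.15 to 1.59 for IER2, -0.18 to 0.20 for EGR1, -0.96 to 0.87 for FOSL1, -0.50 to 0.010 for DNAJB1, -0.51 to 0.037 for HSPA1A, -0.14 to 0.024 for HSPA8, -0.81 to 0.092 for IL1B, -0.36 to 0.17 for IL1RN, -0.21 to 0.16 for SDC4, -0.089 to 0.25 for SOD2, -0.59 to 0.86 for TNFAIP3 and -0.12 to 0.014 for NCL. CCL5, CXCL10, CXCL3 and CXCL5 were among the genes called without WT B.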
